A study of Mus musculus with 2 samples.

Results

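Gnas, the gene of the stimulatory G protein alpha subunit, was read in 2 long-read RNA libraries of mouse adrenal gland, and its transcripts were sorted here by the exon in which they begin. The libraries, which the labels number as biological replicates 1 and 2 of a single group, came from wild-type C57BL/6J mice of The Jackson Laboratory. They were separate biosamples that share 1 donor entry, a description calls the tissue male although the sex field was not filled in, and the age is given as unknown. No treatment, genotype or time was compared, so every test set replicate 1 against replicate 2 as libraries, or 1 first exon against another within a library. All transcript models that the authors assigned to the annotated gene Gnas (ENSMUSG00000027523.19) were taken, of every class. That gave 57 of 98236 models in replicate 1 and 38 of 86472 in replicate 2, and 1 of the 16745 annotated genes with a read in either library.

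Gnas is a complex imprinted locus. Several promoters with their own first exons splice into a common set of downstream exons. Exon 1 begins the transcripts of Gs alpha, which couples receptors such as the corticotropin receptor to adenylyl cyclase and so to cyclic AMP, the signal for steroid synthesis in the adrenal cortex. The Nesp promoter gives the neuroendocrine secretory protein NESP55, a granin-like protein of chromaffin granules that is encoded upstream of the common exons and expressed from the maternal allele. The XL promoter gives the extra-large alpha subunit XLalphas, expressed from the paternal allele. Exon 1A begins paternal transcripts that are regarded as noncoding. Exon 3 is a cassette exon whose use separates the long and short forms of Gs alpha. The mice were of an inbred strain, so parental alleles were not told apart.

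On mm10 the gene lies on chromosome 2, plus strand, from 174284320 to 174346744. The annotated first exons up to exon 1 fell into 4 groups: Nesp (174284320 to 174285477), XL (174297859 to 174300217), exon 1A (174327570 to 174328131) and exon 1 (174330006 to 174330434). They start 0, 13.5, 43.3 and 45.7 kb from the Nesp start. Gnas-213 and Gnas-216, annotated as retained-intron transcripts, start further downstream, at 174344650 and 174341704, and were left out of the groups. Exon 3 lies at 174336747 to 174336791 and is 45 bases long. Exon 4 has an annotated start at 174341653 and another, 3 bases upstream, at 174341650. The coding sequence of the exon 1 transcripts runs from 174330296 to 174346385, so exon 3 and the start of exon 4 are coding exons.

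The splice choices at exons 3 and 4 give the 3 Gs alpha transcripts that held most reads of the gene, and their junctions are shown because the results on exon 3 turn on them. Each line runs from the last 20 bases of exon 2 to the first 20 bases of exon 4 after its downstream start (174334265 to 174341672 on GRCm38, plus strand, from the GENCODE transcript sequences). Capitals mark exon 3 in Gnas-208 and the 3 extra bases of the upstream start in Gnas-207.
Gnas-208: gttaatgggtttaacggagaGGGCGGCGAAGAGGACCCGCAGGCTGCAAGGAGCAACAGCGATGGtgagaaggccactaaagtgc
Gnas-207: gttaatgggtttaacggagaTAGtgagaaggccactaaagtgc
Gnas-206: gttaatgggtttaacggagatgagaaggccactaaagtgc

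Promoter sequences were at hand for 3 of the 4 groups and are shown because reads were sorted by these starts. Each holds 250 bases before and 50 after a start (RefSeq, GRCm38.p6, chromosome 2, plus strand): 174284070 to 174284369 for Nesp, 174327499 to 174327798 for exon 1A and 174329756 to 174330055 for exon 1. Capitals mark TTTATAG in the Nesp and exon 1A windows, and GGGCGG on the reverse strand, read here as CCGCCC, in the exon 1 window.
Nesp promoter: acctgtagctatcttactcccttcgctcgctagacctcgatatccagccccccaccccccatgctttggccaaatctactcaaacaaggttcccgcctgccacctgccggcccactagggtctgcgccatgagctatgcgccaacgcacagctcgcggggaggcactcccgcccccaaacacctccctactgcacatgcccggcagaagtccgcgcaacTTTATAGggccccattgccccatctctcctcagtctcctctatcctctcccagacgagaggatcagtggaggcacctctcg
exon 1A promoter: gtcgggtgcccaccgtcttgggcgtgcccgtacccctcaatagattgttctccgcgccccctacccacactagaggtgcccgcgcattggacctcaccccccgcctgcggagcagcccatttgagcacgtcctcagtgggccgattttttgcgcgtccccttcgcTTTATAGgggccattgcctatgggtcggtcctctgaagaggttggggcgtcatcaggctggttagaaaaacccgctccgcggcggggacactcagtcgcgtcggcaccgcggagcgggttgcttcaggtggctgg
exon 1 promoter: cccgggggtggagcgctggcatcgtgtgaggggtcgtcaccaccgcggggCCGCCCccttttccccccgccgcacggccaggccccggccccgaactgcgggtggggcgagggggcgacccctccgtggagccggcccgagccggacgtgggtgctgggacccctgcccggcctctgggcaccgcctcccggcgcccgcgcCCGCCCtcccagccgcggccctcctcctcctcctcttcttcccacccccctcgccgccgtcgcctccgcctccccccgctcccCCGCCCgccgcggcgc

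The windows differed in base composition. The exon 1 window had 81.7% G and C and 40 CG dinucleotides, at percentile 99.4 and 96.1 of the 32817 mouse promoters of the same length. The Nesp window had 61% and 16, and the exon 1A window 64.3% and 27, while the median promoter had 52.7% and 7. TTTATAG, searched on both strands, stood once in the Nesp window, 31 bases before the start, and once in the exon 1A window, 85 bases before the start used in that table. It was not found in the exon 1 window, and 3.63% of all promoters hold it. GGGCGG, searched on both strands, was found 3 times in the exon 1 window, once in the Nesp window and not in the exon 1A window, against 35.6% of all promoters with a match. The motifs do not overlap each other. They were chosen after the sequences were seen, and a match is a description of the letters only.

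Replicate 1 held 848782 reads and replicate 2 held 545229, so that 1 read was worth 1.18 CPM (counts scaled to 1000000 reads) in replicate 1 and 1.83 CPM in replicate 2. Replicate 1 held shorter transcripts: its median annotated length over reads of known transcripts was 1648 bases, against 2740 in replicate 2. Of 7 markers of adrenal cortex all had reads in both libraries, of 7 markers of medulla 7 and 6 had reads, and of 5 kidney markers 1 had a single read in replicate 1 (Umod, Kap, Slc34a1 and Aqp2 were at 0). Markers of other cells summed to 1304 CPM in replicate 1 and 97.2 CPM in replicate 2 (erythroid), 864.8 and 321.0 (macrophage), 117.8 and 45.9 (adipocyte), 228.6 and 1047 (endothelium) and 5.89 and 5.50 (Schwann cells), and their part in the results was not tested. The macrophage markers did not move together. Lyz2 (648.0 and 141.2 CPM) and Cd74 (183.8 and 66.0 CPM) were higher in replicate 1. Adgre1 (13.0 and 47.7 CPM) and Csf1r (20.0 and 66.0 CPM) were lower there. Fewer cells of a type and less RNA per cell cannot be told apart in such tissue. Intervals below are exact 95% intervals, Clopper-Pearson for shares and Poisson for CPM, and cover counting error only.

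Gnas had 756 reads in replicate 1 and 504 in replicate 2. On the scale of all reads of a library this was 890.7 CPM (interval 828.3 to 956.5) and 924.4 CPM (845.4 to 1009), a mean of 907.5 ± 23.8 CPM (SD, n = 2). The gene ranked 114 of 15239 in replicate 1 and 97 of 13943 in replicate 2 by reads. The log2 ratio of replicate 1 over replicate 2, after adding 1 CPM, was -0.05 and did not pass Fisher's exact test (adjusted p = 0.598 over 9879 genes), against 64.4% of genes that did. The direction of the gene total depended on the scale. It was 0.41 with TMM scaling (adjusted p = 1.91e-06) and 0.50 with DESeq2 size factors (adjusted p = 6.44e-09), -0.39 when known transcripts alone were counted (adjusted p = 0.000105) and -0.32 with the trend on transcript length removed (adjusted p = 0.00064). Over all genes tested the median log2 ratio was -0.38, and these scalings moved it by 0.46 (TMM), 0.53 (DESeq2) and 0.38 (length trend), so the total gives no firm difference between the libraries. Of the genes called, 43.3% were higher in replicate 1 on the main scale, 55.8% with TMM and 58.4% with DESeq2 size factors.

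The reads fell on few structures. Of 80 distinct Gnas models in both libraries together, 15 were seen in both, and these held 86.2% of Gnas reads in replicate 1 and 93.7% in replicate 2. At least 10 reads were held by 8 models in replicate 1 and by 6 in replicate 2, while 26 and 22 models had a single read. Known models, which carry all splice junctions of an annotated transcript, numbered 6 and 8. The annotation lists 24 transcripts of the gene.

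Exon 1 was the first exon with the most reads in both libraries. Over all classes of models it began 486 reads of replicate 1 and 317 of replicate 2, or 572.6 CPM (522.8 to 625.8) and 581.4 CPM (519.2 to 649.1). On that scale exon 1 was close in the libraries, with a ratio of replicate 1 over replicate 2 of 0.985 (interval 0.853 to 1.14). They made up 64.3% of all Gnas reads in replicate 1 (60.8 to 67.7) and 62.9% in replicate 2 (58.5 to 67.1). The mean share was 63.6% ± 0.982 (SD, n = 2).

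Nesp was next, with 117 reads in replicate 1 and 149 in replicate 2. That was 137.8 CPM (114.0 to 165.2) and 273.3 CPM (231.2 to 320.9), so the intervals did not overlap. The ratio was 0.504 (0.393 to 0.647), lower in replicate 1 in Fisher's exact test of these reads against all other reads (adjusted p = 1.19e-07 over the 7 groups of starts). As a share of Gnas reads Nesp made up 15.5% in replicate 1 and 29.6% in replicate 2.

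Exon 1A began 44 reads in replicate 1 and 19 in replicate 2, or 51.8 CPM (37.7 to 69.6) and 34.8 CPM (20.98 to 54.4). The ratio of 1.49 had an interval from 0.851 to 2.70 and did not pass (Fisher's exact test, adjusted p = 0.22). XL was near the lower limit of these libraries, with 4 reads in replicate 1 and 6 in replicate 2, or 4.71 and 11.005 CPM. Its ratio was 0.428 (0.0889 to 1.81; Fisher's exact test, adjusted p = 0.238). Over all classes the order of the groups by reads in both libraries was exon 1, Nesp, exon 1A and XL, and within each library the CPM intervals of neighbours in that order did not overlap, except those of exon 1A and XL in replicate 2 (20.98 to 54.4 and 4.04 to 24.0 CPM). With known, NIC and NNC models alone, which are described further on, exon 1A was above Nesp in replicate 1, at 44 and 12 reads, and the order in replicate 2 was the same as over all classes. Annotated transcripts of the groups differ in length: Gnas-208 (exon 1) has 1716 bases, Gnas-211 (Nesp) 2465, Gnas-221 (exon 1A) 1427 and Gnas-209 (XL) 3519. The part of length in the order of the groups was not tested.

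**Figure D1:**
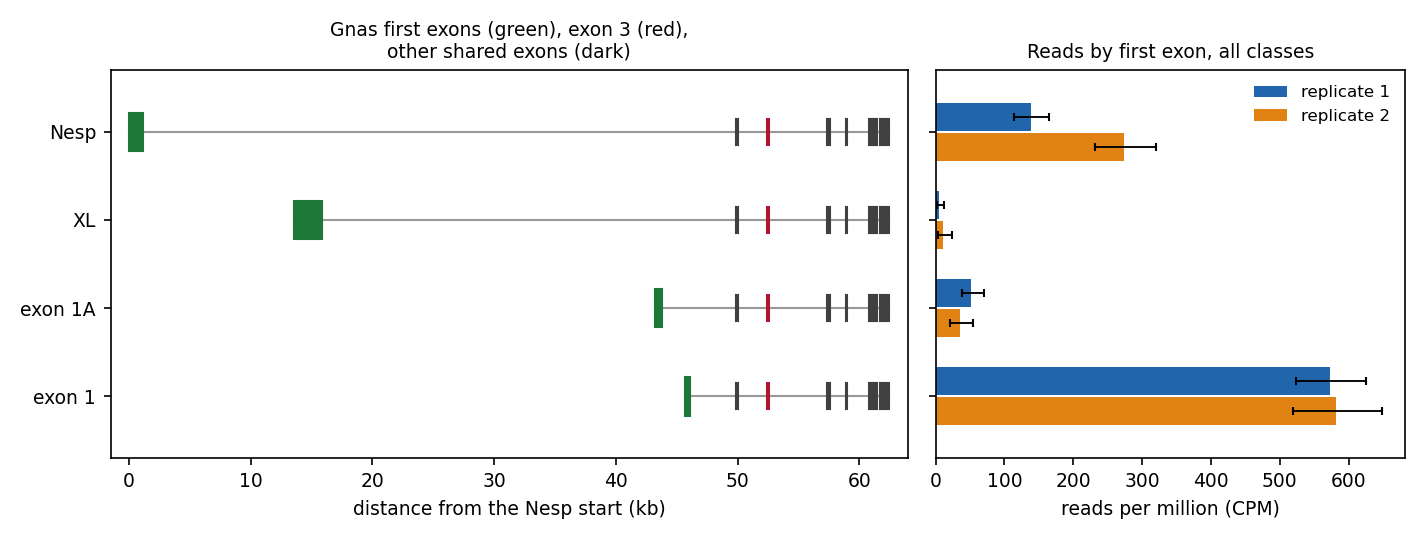
The left panel maps the 4 groups of Gnas first exons and the shared exons by distance from the Nesp start in kb, and the right panel gives CPM by first exon over all model classes, with exact 95% Poisson intervals for replicate 1 (upper bars) and replicate 2 (lower bars). Exon 1 stands at 572.6 and 581.4 CPM, Nesp at 137.8 and 273.3 CPM, exon 1A at 51.8 and 34.8 CPM and XL at 4.71 and 11.005 CPM.

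The remaining reads began elsewhere and were mostly in replicate 1. Models that start after exon 1 had 62 reads in replicate 1 and 6 in replicate 2, a ratio of 6.64 (2.88 to 18.8; Fisher's exact test, adjusted p = 1.19e-07). One of them, which starts at exon 6 (174343200) and has 7 exons, had 10 reads and 0 reads. Unspliced models had 34 and 7 reads, a ratio of 3.12 (1.36 to 8.34; adjusted p = 0.00820, same test). Of the unspliced reads of replicate 1, 19 lay in a single model over the last exon (174346240 to 174346712), with 0 in replicate 2. Other starts upstream of exon 1 had 9 and 0 reads (adjusted p = 0.0258, same test).

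The Nesp reads of the libraries differed in the form of their 5′ end. The annotated Nesp transcript Gnas-211 has 13 exons and 2465 bases, and an intron of 95 bases (174284509 to 174284603) parts its first exon from the second, which holds the whole NESP55 coding sequence (174284674 to 174285432). Gnas-211 had 3 reads in replicate 1 and 96 in replicate 2. An unannotated model with the same start and end but no such intron, of 12 exons and 2560 bases, had 103 reads in replicate 1 and 36 in replicate 2. The authors' classes put it among incomplete splice matches (ISM), models that hold a run of the junctions of a known transcript and lack part of it. The coding sequence lies downstream of the intron and is inside both models.

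Over all Nesp models, the first intron was spliced in 4 of 117 reads of replicate 1 (3.42%, 0.939 to 8.52) and in 110 of 149 reads of replicate 2 (73.8%, 66 to 80.7). Models that begin at the Nesp start without splicing the intron held 88.9% of the reads in replicate 1 and 24.8% in replicate 2. The share spliced was lower in replicate 1 (two-sided Fisher's exact test, p = 3.42e-35), a test chosen after the values were seen. Of the unannotated Gnas models, 32 of 51 in replicate 1 and 24 of 30 in replicate 2 begin at an annotated exon start. The 12-exon Nesp model begins at the annotated Nesp start, and the ends of single reads are not given. Reads that kept the intron and reads that began after it therefore cannot be told apart in these files.

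**Figure D2:**
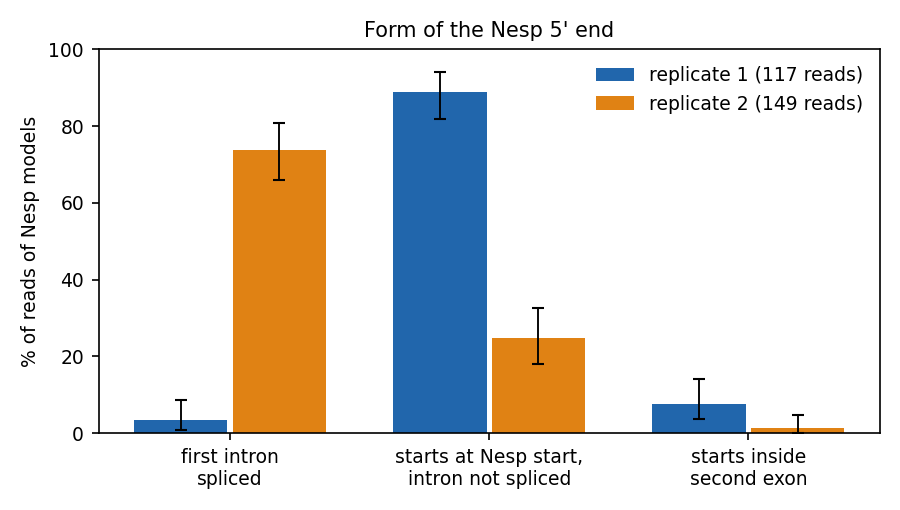
Share of the reads of Nesp models by the form of the 5′ end, in % of 117 reads of replicate 1 (left bars) and 149 reads of replicate 2 (right bars), with exact 95% intervals. The spliced form holds 3.42% in replicate 1 and 73.8% in replicate 2.

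Reads in the ISM subclass that the authors call suffix, which matches the 3′ run of the junctions of a known transcript, were more frequent in replicate 1 for Gnas. Of the Gnas reads in known or suffix models, suffix models made up 24.9% in replicate 1 (166 reads) and 9.25% in replicate 2 (43 reads; Fisher's exact test, adjusted p = 3.74e-10). Of these, 105 and 37 were Nesp reads, nearly all in models that begin at the annotated Nesp start. For those reads it cannot be told whether the 5′ part was missing. Another 60 and 6 were in models that start after exon 1, which lack the first exons grouped here. By the same test, added after the data were seen, 14.1% of 1888 genes were called, 216 of them higher in replicate 1. Known transcripts of a length within 10% of Gnas-211 had a median log2 ratio of -1.49 (quartiles -2.34 to -0.34). Gnas-211 itself had -5.29, a value that leaves out the 12-exon Nesp model with 103 and 36 reads. All Nesp models together had a CPM ratio of replicate 1 over replicate 2 of 0.504. The part of read length in the Nesp difference was not tested.

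Since NESP55 is granin-like, other granins and the medulla markers were set beside it. Of the 7 genes of the granin list 6 could be tested, of which 3 were higher and 3 lower in replicate 1, against a background of 27.9% and 36.6% of all genes. Their median log2 ratio was -0.39, beside -0.38 over all genes tested. Chga, the major soluble protein of chromaffin granules, had 2558 CPM in replicate 1 and 5985 CPM in replicate 2 (log2 ratio -1.23). Chgb, of the same granules, had 3881 and 14458 CPM (-1.90), and Scg2, the precursor of secretoneurin, had 3062 and 2786 CPM (0.14, adjusted p = 0.00648 in Fisher's exact test). Scg5, a chaperone of a prohormone convertase, had 107.2 CPM in replicate 1 and 7.34 CPM in replicate 2 (3.698, and 1.097 and not past the threshold with the length trend removed), and Pcsk1n, an inhibitor of a prohormone convertase, had 249.8 and 25.7 CPM (3.23). TMM scaling left 3 higher and 2 lower, and removal of the length trend left 2 and 2. The 7 medulla markers summed to 10118 CPM in replicate 1 and 23128 CPM in replicate 2, with Phox2a at 0 in replicate 2. They did not move together: Th (tyrosine hydroxylase) had 2831 and 1489 CPM, and Dbh (dopamine beta-hydroxylase) 129.6 and 1031 CPM. The part of the medulla in the Nesp difference was not tested.

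When the use of first exons was tested over all genes, in known models and in unannotated spliced models of the classes NIC (known splice sites in a new combination) and NNC (at least 1 new splice site), Gnas was among the genes called. Exon 1 began 485 of 554 such reads in replicate 1 (87.5%, 84.5 to 90.2) and 316 of 448 in replicate 2 (70.5%, 66.1 to 74.7). The share was 17.01 percentage points higher in replicate 1 (Fisher's exact test, adjusted p = 4.75e-09), the 10th smallest p of 1704 genes, of which 4.64% were called. These classes leave out the 12-exon Nesp model, so Nesp had 12 reads in replicate 1 and 108 in replicate 2 there. With all classes that begin in an annotated first exon counted, exon 1 held 72.8% and 64.4%, a difference of 8.32 points (adjusted p = 0.0306, same test). This count includes models at the first exons of Gnas-213 and Gnas-216, which lie after exon 1. In the 4 groups alone exon 1 held 74.7% of 651 reads in replicate 1 and 64.6% of 491 in replicate 2. The size of the difference in first-exon use thus rested on how the Nesp reads were classed. By splice donor 14 first exons of Gnas were told apart, most of them from few reads, and 2 had at least 10 reads in each library. Of the 1704 genes, 116 had at least 2 such first exons.

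Exon 3 set the exon 1 transcripts apart from those of Nesp and exon 1A. It was in almost all reads that began at Nesp or exon 1A, and in a smaller share of those from exon 1. Over all classes, 114 of 116 Nesp reads of replicate 1 (98.3%, 93.9 to 99.8) and 143 of 145 of replicate 2 (98.6%, 95.1 to 99.8) had it. From exon 1A it was in 42 of 44 reads of replicate 1 (95.5%, 84.5 to 99.4) and in 19 of 19 of replicate 2 (82.4 to 100). All 4 spanning XL reads of each library had it, with an interval from 39.8 to 100%. From exon 1 it was in 288 of 486 reads of replicate 1 (59.3%, 54.7 to 63.7) and in 232 of 316 of replicate 2 (73.4%, 68.2 to 78.2).

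The 4 first exons give 6 pairs in each library, and 12 comparisons were adjusted together. Nesp exceeded exon 1 by 39.0 percentage points in replicate 1 (Fisher's exact test, adjusted p = 4.91e-19) and by 25.2 points in replicate 2 (adjusted p = 1.62e-12). Exon 1A exceeded exon 1 by 36.2 points in replicate 1 (Fisher's exact test, adjusted p = 6.52e-07) and by 26.6 points in replicate 2 (adjusted p = 0.0156). XL, with 4 reads, did not pass against exon 1 (adjusted p = 0.363 and 0.988, same test). Nesp and exon 1A differed by 2.82 points in replicate 1 and by -1.38 points in replicate 2, neither past the threshold (adjusted p = 0.607 and 1, same test). When known, NIC and NNC models alone were counted, Nesp had 12 reads in replicate 1 and the difference from exon 1 was 32.5 points with adjusted p = 0.0983, while in replicate 2 it was 24.7 points with adjusted p = 6.02e-09 (Fisher's exact test). Exon 1A passed in both libraries in that count too (adjusted p = 9.49e-07 and 0.0208, same test).

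**Figure D3:**
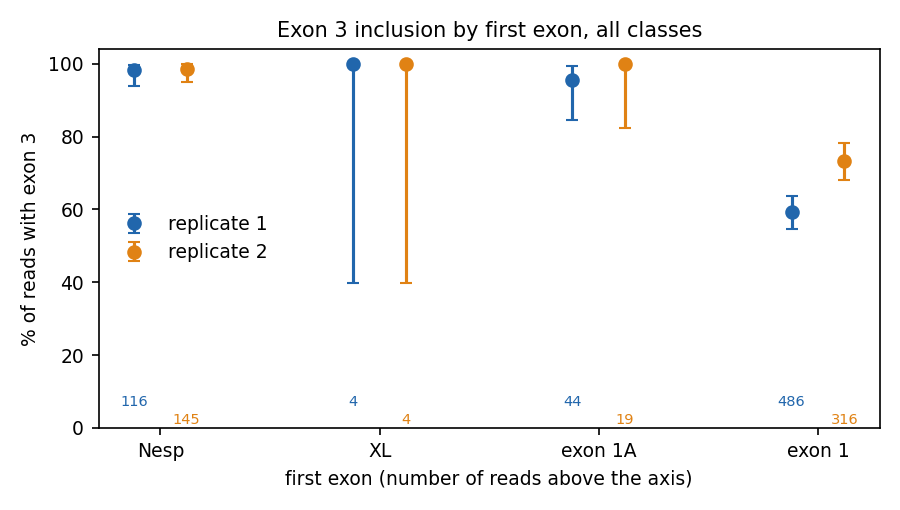
Share of spanning reads that include exon 3, in %, by first exon, for replicate 1 (left of each pair) and replicate 2 (right), with exact 95% intervals and the number of reads above the axis. Nesp and exon 1A lie at 95.5% or above in both libraries, exon 1 at 59.3% and 73.4%, and the XL points rest on 4 reads each.

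Inclusion of exon 3 also differed between the libraries. In known, NIC and NNC models of all first exons it was 63.5% in replicate 1 (350 of 551 reads, 59.3 to 67.5) and 80.8% in replicate 2 (361 of 447, 76.8 to 84.3). The difference of -17.2 points had the third smallest p of 5105 cassette exon events of all genes (Fisher's exact test, adjusted p = 3.18e-06), of which 0.313% were called. The mean over the libraries was 72.1% ± 12.2 (SD, n = 2). The shares of the first exons differed between the libraries as well, but the difference was present within the exon 1 reads alone: 287 of 485 in replicate 1 (59.2%) and 232 of 316 in replicate 2 (73.4%), or -14.2 points (two-sided Fisher's exact test, p = 4.18e-05, chosen after the values were seen). With all classes counted the difference over all first exons was -13.1 points.

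**Figure D4:**
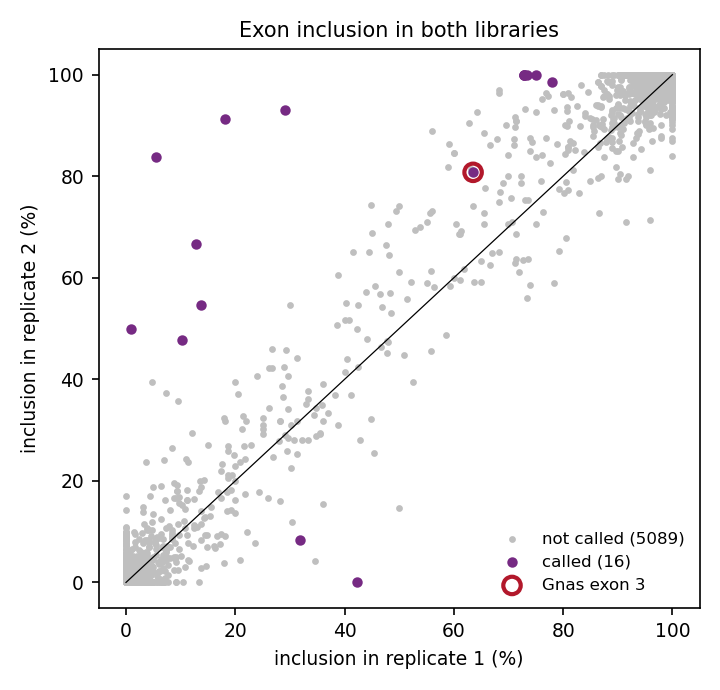
Inclusion in % of 5105 cassette exons in replicate 1 (x axis) and replicate 2 (y axis), with the 16 called events in purple and Gnas exon 3 ringed in red. Gnas exon 3 lies above the line of equality, at 63.5% in replicate 1 and 80.8% in replicate 2.

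The 3 Gs alpha transcripts carried this difference. Gnas-208, the long form with exon 3 (12 exons, 1716 bases), had 284 reads in replicate 1 and 229 in replicate 2, or 334.6 and 420.0 CPM. Gnas-207, without exon 3 and with the upstream start of exon 4 (1789 bases), had 116 and 45 reads, or 136.7 and 82.5 CPM. Gnas-206, without exon 3 and with the downstream start (1695 bases), had 76 and 36 reads, or 89.5 and 66.0 CPM. On the scale of all reads the long form was lower in replicate 1 and both short forms were higher there. TMM scaling moved the median log2 ratio of all genes by 0.46, more than the -0.33 of Gnas-208, so the CPM direction of the long form depends on the scale, while the shares within Gnas do not. The 3 lengths lie within 94 bases of each other.

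The start of exon 4 went with exon 3. Among exon 1 reads with exon 3 the upstream start was used in 0 of 287 reads of replicate 1 and 0 of 232 of replicate 2, which allows shares of up to 1.05% and 1.29%. Among exon 1 reads without exon 3 it was used in 116 of 192 reads of replicate 1 (60.4%, 53.1 to 67.4) and in 45 of 81 of replicate 2 (55.6%, 44.1 to 66.6). With and without exon 3 differed in each library (Fisher's exact test, p = 9.08e-60 and 2.17e-32), and no annotated transcript from exon 1 joins exon 3 to the upstream start, so known models could not show that form. Between the libraries the use of the upstream start in reads without exon 3 did not pass (Fisher's exact test, p = 0.501). Thus of exon 1 reads in these forms, the long form made up 59.9% in replicate 1 and 74.1% in replicate 2, the short form with the upstream start 24.2% and 14.4%, and that with the downstream start 15.9% and 11.5%.

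Beside transcripts of like length the Gnas models stood as follows. Known transcripts within 10% of the length of Gnas-208 had a median log2 ratio of 0.97 (quartiles 0.07 to 2.03), and Gnas-208 had -0.33. Gnas-207 had 0.72 beside a median of 0.63, and Gnas-206 had 0.43 beside 1.05. The exon 1A transcript Gnas-221 (13 exons, 1427 bases) had 19 reads in replicate 1 and 11 in replicate 2, a log2 ratio of 0.14 beside 2.46. The XL transcript Gnas-209 (12 exons, 3519 bases) had 4 and 3 reads, a log2 ratio of -0.19 beside -2.14. The other known XL transcripts with a read, Gnas-204 and Gnas-220, had 0 reads in replicate 1 and 1 read each in replicate 2.

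**Figure D5:**
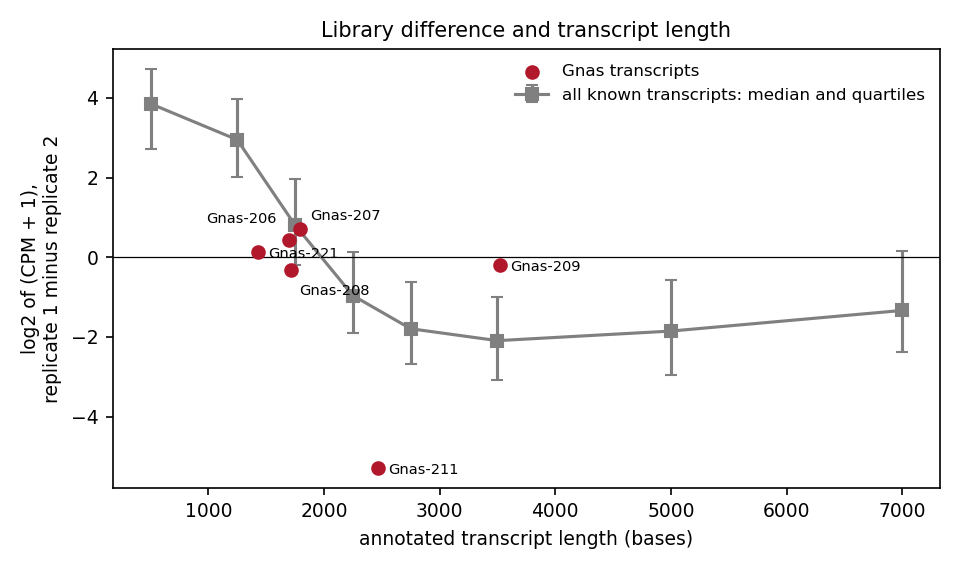
Log2 ratio of replicate 1 over replicate 2 in CPM + 1 against annotated length in bases, with the median and quartiles of all known transcripts by length class in grey (classes drawn at their middle, the last, open class at 7000 bases) and the Gnas transcripts with at least 5 reads in red. Gnas-211 lies at -5.29, below the other Gnas transcripts shown, which lie between -0.33 and 0.72. The 12-exon Nesp model is unannotated and is not drawn.

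Exon 1A transcripts came in forms with and without a small exon of 24 bases (174328108 to 174328131). Gnas-221 includes it, and an unannotated NIC model of 12 exons and 1645 bases that leaves it out had 18 reads in replicate 1 and 6 in replicate 2. Within exon 1A reads the exon was in 21 of 44 reads of replicate 1 (47.7%, 32.5 to 63.3) and in 11 of 19 of replicate 2 (57.9%, 33.5 to 79.7), so the intervals overlapped. Counted over all first exons upstream of it, as the test of all genes does, it was in 31.8% and 8.40% of reads (adjusted p = 0.0204, Fisher's exact test), and there the skipping reads include Nesp reads, which were 12 in replicate 1 and 108 in replicate 2. Exon 2, which all 4 groups of first exons share, was in 542 of 543 and 441 of 442 spanning reads.

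Transcripts that end in the terminal exon N1, which lies between exons 3 and 4 (174337621 to 174338084) and closes short neural transcripts of the locus, were not seen. The count was 0 of 756 Gnas reads in replicate 1 and 0 of 504 in replicate 2, which allows shares of up to 0.397% and 0.595%. These totals include reads in models that begin after N1 and could not end in it. In known, NIC and NNC models the limits were 0.542% of 554 reads in replicate 1 and 0.670% of 448 in replicate 2. For Nesp reads of all classes they were 2.56% and 2.01%. These limits take N1 transcripts to be recovered like the other transcripts of the gene, which was not tested. Annotated N1 transcripts have 702 to 1645 bases. Known transcripts below 1000 bases had a median log2 ratio of replicate 1 over replicate 2 of 3.86.

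By transcript class, known models held 66.4% of Gnas reads in replicate 1 (62.9 to 69.8) and 83.7% in replicate 2 (80.2 to 86.8). ISM models held 22.2% and 9.72%, NIC models 4.76% and 2.38%, NNC models 2.12% and 2.78%, and genomic models, which lie in the gene without a matching splice structure, 4.50% and 1.39%. Of 1561 genes with at least 100 reads in replicate 1, 167 had a higher share of ISM reads than Gnas, and in replicate 2 it was 204 of 951. The antisense strand of the locus held few reads: Nespas, the antisense RNA of the Nesp promoter, had 2 reads in each library, Gm20721 had 3 and 1, and unannotated antisense models had 5 and 1.

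Levels of other genes are given in CPM as molecules read, with no order drawn between genes, since the libraries recovered lengths unequally. Among the G protein alpha subunits, 10 of 16 genes could be tested, of which 2 were higher, 4 lower and 4 not called in replicate 1, against 27.9% higher and 36.6% lower of all genes, with a median log2 ratio of -0.72 beside -0.38 for all genes. Under TMM scaling, as after removal of the length trend, 3 passed as higher and 2 as lower. Gnai3, an inhibitory subunit, had 143.7 CPM in replicate 1 and 876.7 CPM in replicate 2 (log2 ratio -2.60), and Gnai2, of the same class, had 64.8 and 9.17 CPM (2.69). Gna11 of the Gq class had 82.5 and 42.2 CPM (0.95), and Gna14 of that class 84.8 and 289.8 CPM (-1.76, not past the threshold with the length trend removed, where it was -0.37). Gnal, the olfactory counterpart of Gs alpha, had 0 reads and 1 read.

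Of 12 tested beta and gamma subunits, 4 were higher, 1 lower and 7 not called in replicate 1, against 27.9% higher and 36.6% lower of all genes. Their median log2 ratio was 0.09 beside -0.38 for all genes, and was the same with the gene at 0 in replicate 2 set to its bound. Gnb1, a beta subunit, had 1353 CPM in replicate 1 and 66.0 CPM in replicate 2 (log2 ratio 4.34), a direction that turned to -0.76 when known transcripts alone were counted. In the pathway from Gs receptors to protein kinase A, 20 of 33 genes were tested, of which 5 were higher, 7 lower and 8 not called (median -0.48 beside -0.38). These shares are close to the 27.9% higher and 36.6% lower of all genes. After removal of the length trend 4 passed as higher and 2 as lower. Mc2r, the corticotropin receptor, had 73.0 CPM in replicate 1 and 38.5 CPM in replicate 2 (0.91, and -0.17 with the length trend removed), and its accessory protein Mrap 243.9 and 25.7 CPM (3.20, and 0.10 with that trend removed). Prkar1a, a regulatory subunit of protein kinase A, had 685.7 and 1212 CPM (-0.82, and 0.63 with that trend removed). The differences of these 3 genes thus did not hold across scalings.

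Of a list of 10 genes, the antisense gene Nespas and neighbours on chromosome 2, 7 could be tested, of which 3 were higher, 1 lower and 3 not called in replicate 1, against 27.9% higher and 36.6% lower of all genes (median log2 ratio -0.11 beside -0.38). Ctsz, a lysosomal cathepsin, had 402.9 CPM in replicate 1 and 75.2 CPM in replicate 2, Nelfcd, a subunit of the negative elongation factor, 69.5 and 187.1 CPM, and Edn3, an endothelin, 57.7 and 62.4 CPM. The direction of Edn3, which was not called, turned under 3 scalings. By distance in log2(CPM + 1) over the 2 libraries, the 5 genes nearest to Gnas were Reep5 (0.179), Pgrmc1 (0.253), Ghitm (0.333), Tmed2 (0.407) and Ctsd (0.433). With 2 libraries this says only that their CPM values were close to those of Gnas in both.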

How the data were processed

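Reads per transcript model were deposited by the authors as whole-number counts, with a GTF of the models of each library, on mm10 with GENCODE M21 per the text deposited with them. The GTF names TALON as the source of unannotated models. Not given in the sources used here: sequencing platform, aligner, read correction. No normalization was applied to the counts before deposit, and a model is listed where it has at least 1 read.

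CPM here are counts over all reads of a library. Genes with at least 10 reads in sum were set against all other reads in Fisher's exact test (two-sided). First exons, told apart by splice donor, and cassette exons were tested likewise with at least 20 reads in each library. All were adjusted by Benjamini-Hochberg over every gene or event, with a threshold of 0.05. Log2 ratios add 1 CPM. These tests compare 2 libraries, not conditions, and take reads as independent. They allow for counting error only, hold no estimate of the spread between libraries, and a difference they call may be technical. The limit for a count of 0 is 3 counts of the total. For the groups of starts, annotated first exons within 1000 bases were joined, and the groups up to exon 1 were named from 5′ to 3′. Models with at least 10 reads in a library, and known transcripts with a read, are named, and other genes come from lists. The members, the lists and the tests were chosen with earlier results of these data known.

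The alternatives were TMM (edgeR 4.0.16) and DESeq2 (1.42.0) scaling with an exact binomial test, a running median over 301 genes for the length trend, other model classes and minimums, and each library left out. Python 3.11.15, numpy 2.4.6, pandas 2.3.3, scipy 1.17.1 and R 4.3.3 were used, and the tests were tried on simulated data first. Sequences are from GENCODE transcripts and RefSeq promoters, with no promoter shown for XL.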

Additional observations from a re-analysis of the deposited data

How the results depend on the processing

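Gnas first-exon use and exon 3 inclusion kept their direction and passed the threshold under every alternative run. The gene total did not: its log2 ratio of -0.05 became 0.41 (TMM), 0.50 (DESeq2), -0.39 (known transcripts) and -0.32 (length trend removed). The difference in exon 1 use fell from 17.01 to 8.32 points (adjusted p = 0.0306 by Fisher's exact test) with all classes that begin in an annotated first exon. As a share of all Gnas reads, exon 1 held 64.3% in replicate 1 and 62.9% in replicate 2, and that share was not tested. Genes called numbered 6363, and 3771 with the length trend removed. Genes with first-exon use called numbered 79, 133 with all classes and 45 with at least 50 reads. Exons called numbered 16, 10 with known models and 3 with at least 50 reads. The mean share of exon 1A was 6.09%, and 3.20% in known models. Averaged over the libraries, exon 3 inclusion of Nesp minus exon 1 was 28.6 points (larger adjusted p = 0.0983 by Fisher's exact test), 32.1 points with all classes (adjusted p = 1.62e-12) and 24.7 to 32.5 points with a library left out. It was 33.9 points with models of at least 2 reads (adjusted p = 0.136, same test). With known models, added after the data were seen, it was 33.2 points (adjusted p = 0.667, same test). Exon 3 inclusion of exon 1A minus exon 1 was 31.4 points. With known models, an alternative added after the data were seen, it was 33.2 points (adjusted p = 0.287 by Fisher's exact test). In that count the only exon 1A transcript with reads was Gnas-221, which includes exon 3. The exon 1A reads without exon 3 were in NIC models, which it leaves out. Directions turned for Edn3 (0.35 with TMM, 0.43 with DESeq2, 1.22 with the length trend removed), for Gnai1 (-2.48) and Gnb1 (-0.76) with known transcripts, and for Mc2r (-0.17), Prkar1a (0.63), Prkar2b (0.49) and Crem (-2.81) with the length trend removed. The causes were not tested. No paired analysis was possible because the libraries form 1 group. With 4 and 6 reads, XL transcripts were too few for their exon use to be compared.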
